A study of Mus musculus with 4 samples.

Results

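The subunits of the mitochondrial respiratory chain and ATP synthase that are encoded in the nucleus were examined in mouse follicular T helper (Tfh) cells, which give help to B cells in lymphoid follicles. Members were taken by gene symbol: 84 of the 23997 rows of the deposited table carry a symbol of the Nduf, Sdh, Uqcr, Cox4 to Cox8 or Atp5 families. By complex they are 35 genes of complex I, 4 of complex II, 8 of complex III, 20 of complex IV and 17 of complex V. Ndufa4 and Ndufa4l2 were counted with complex IV, of which Ndufa4 is now known to be a subunit. Cox7a2l, known as a supercomplex factor, and Atp5s and Atp5sl, which are not structural subunits, match by symbol and were kept. Supercomplexes were not measured here, and the activity of Cox7a2l in this strain was not tested.

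RNA came from Tfh cells of lymph nodes and spleens of C57BL/6 mice aged 13 weeks. Wild-type (WT) mice gave 2 libraries and Apoe-/- mice gave 2. The Apoe-/- mice lack apolipoprotein E, a ligand that clears lipoproteins from plasma. No treatment is named for either genotype. The labels give neither the sort that defined the cells nor the number of animals behind a library, so p-values reflect only how these 4 libraries vary, and that variation may be technical. The comparison sets Tfh transcriptomes of an atherogenic strain beside those of wild type.

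Complexes I to IV pass electrons from NADH and succinate to oxygen and, except for complex II, pump protons across the inner mitochondrial membrane. Complex V lets the protons flow back and makes ATP. A few subunits of complexes I, III, IV and V are encoded in mitochondrial DNA, but most are nuclear, and the nuclear set is expressed in nearly every cell type. In T cells, oxidative phosphorylation serves resting and long-lived cells, and activation raises both it and glycolysis.

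Values are in FPKM, a fragment count divided by transcript length and by library size, which puts genes on one scale. Read length and annotation are not given and some members share sequence with other genes, so rankings between genes are approximate. Read depth is unknown. Where 4 values are given, the WT libraries 1 and 2 come first and the Apoe-/- libraries 1 and 2 follow. FPKM totals were 522371 to 527056 in WT and 533866 to 551289 in Apoe-/- libraries. Apoe was at 145 and 128 FPKM in the WT libraries and at 5.09 and 5.21 FPKM in the Apoe-/- libraries. The helper T cell markers summed to 1390 to 1407 FPKM in WT and 1427 to 1447 FPKM in Apoe-/- libraries, and all 7 were detected in each library. Within this list the values went both ways. Pdcd1, the receptor PD-1, was at 283 and 260 against 203 and 179 FPKM (adjusted p = 0.0887), Cxcr5, the follicle-homing receptor, at 176 and 162 against 223 and 204 FPKM (adjusted p = 0.153) and Bcl6, the Tfh lineage factor, at 94.1 and 96.4 against 116 and 108 FPKM (adjusted p = 0.250). Their groups did not overlap, and none passed the test. Sums of markers of other cells also differed between genotypes, though in some lists 0 markers passed the test. The 9 B cell markers summed to 325 and 330 FPKM in WT and to 193 and 202 FPKM in Apoe-/- libraries, all 9 lower without overlap, and 4 passed the test. The 10 macrophage and monocyte markers summed to 236 to 269 FPKM in WT and 294 to 332 FPKM in Apoe-/- libraries. Of these 10, 8 were higher and 2 lower, and 1 passed the test. The sums of the 7 neutrophil markers were 5.67 to 7.46 against 46.1 to 62.2 FPKM, with Elane and Camp listed at 0 in each library. For dendritic cells (6 markers) they were 7.73 to 8.20 against 16.6 to 17.7 FPKM. The CD8 T and NK cell sums (9 markers) were 21.7 to 21.9 against 28.6 to 33.4 FPKM. The erythroid sums (7 markers) were 47.6 to 50.8 against 29.0 to 32.8 FPKM. Among tested markers, 3 of 3 passed for neutrophils and 1 of 4 for dendritic cells. It was 0 of 7 for CD8 T and NK cells, with 1 lower. It was 0 of 4 for erythroid cells, with 1 higher and 3 lower. The 8 proliferation markers summed to 454 and 513 FPKM in WT and 358 and 415 FPKM in Apoe-/- libraries. Of these 8, 0 passed by limma, with 0 higher and 2 lower at an unadjusted p under 0.05. Of all tested genes, 1.83% passed, and 11.6% were higher and 8.27% lower at an unadjusted p under 0.05. Groups did not overlap for 27.5% of them with higher and 22.9% with lower values. The part of the cell and proliferation markers in the differences below was not tested. In such bulk samples fewer cells of a type and less RNA per cell cannot be told apart.

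The respiratory chain genes were among the most abundant transcripts of these cells. Of the 84 members, 79 had a mean of 1 FPKM or more over the libraries and were tested. The other 5 were the tissue-restricted isoforms Cox4i2, Cox7b2, Cox8b, Cox8c and Ndufa4l2. The median tested member stood at 98.8 FPKM, against 15.4 FPKM for all 11187 tested genes, and 56 of the 79 lay in the top 10% by level. Setting aside the 8 tissue-restricted isoforms and the 2 genes that are not structural, the remaining 74 members ranged from 10.7 FPKM (Ndufa11) to 414 FPKM (Atp5e). Median levels ran from complex II (68.7 FPKM) and complex I (76.5 FPKM) through complex III (124 FPKM) to complexes IV (207 FPKM) and V (243 FPKM).

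**Figure D1:**
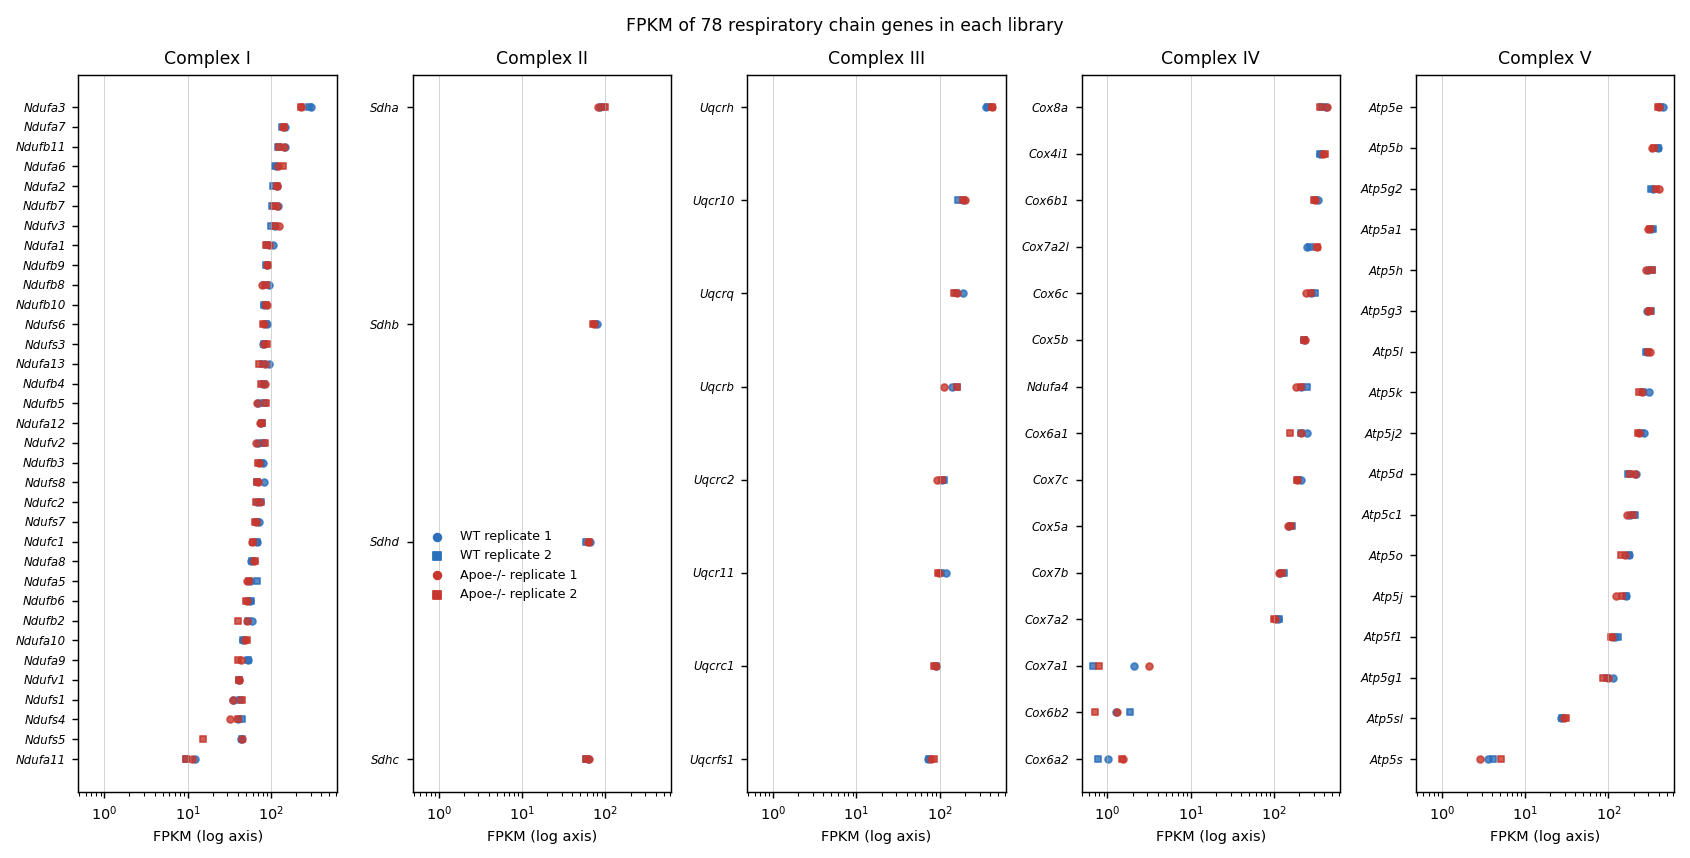
FPKM on a log axis of 78 of the 79 tested members in each library, by complex; blue marks WT and red marks Apoe-/-, with circles for replicate 1 and squares for replicate 2. Most members form a band around 100 FPKM with the 4 libraries close together, while Ndufs5 has 1 Apoe-/- library at 15.3 FPKM and Cox6a2, Cox6b2 and Cox7a1 lie near 1 FPKM.

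No respiratory chain gene passed the test between genotypes, and for most of them the 95% interval lay within 1.5-fold. By limma on log2(FPKM + 1), adjusted over all tested genes, 0 of 79 members had an adjusted p under 0.05, whereas 1.83% of all tested genes did; the smallest adjusted p was 0.111, for Ndufa3. At an unadjusted p under 0.05 there were 3 members higher (3.8%) and 3 lower (3.8%), against 11.6% and 8.27% of all tested genes. The 95% interval of the difference lay within 1.5-fold in either direction for 72 of the 79 members (91.1%) and for 62.4% of all tested genes. The median standard error was 0.10 for members and 0.13 for all tested genes on the log2 scale. The 7 members with wider intervals were Ndufs5, Ndufb2, Uqcrb, Cox6a1, Cox6a2, Cox6b2 and Cox7a1. A difference of 0.5 or more on the log2 scale was seen in 1 member, Ndufs5, and in 9.24% of all tested genes. These shares are not matched for level: the median was 98.8 FPKM for members and 15.4 FPKM for all tested genes. Shares for genes of like level were not computed. A p that misses the threshold does not show that levels were equal.

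The members leaned slightly to lower values in Apoe-/- cells. Their median log2 difference was -0.05, with an interquartile range of -0.16 to 0.03, against a median of 0.00 over all tested genes (-0.16 to 0.17). Differences were negative for 52 members and positive for 27. Rescaling the libraries to one FPKM total changed this to 62 and 17, and moved the medians of members and of all tested genes to -0.10 and -0.04. The members' median was -0.08 without WT replicate 2 and -0.07 without Apoe-/- replicate 2. The groups did not overlap for 27 members with lower values (34.2%) and 14 with higher values (17.7%), against 22.9% and 27.5% of all tested genes. Within replicate number 1 the median difference of the members was -0.08 and within number 2 it was -0.04. Marker lists shifted in the same libraries too. Median differences were -0.75 for B cell, -1.01 for erythroid and -0.18 for proliferation markers. They were 0.06 for helper T, 0.25 for macrophage and monocyte and 0.47 for CD8 T and NK cell markers. For dendritic and neutrophil markers they were 0.75 and 2.43. The part of these shifts in the members' lean was not tested.

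**Figure D2:**
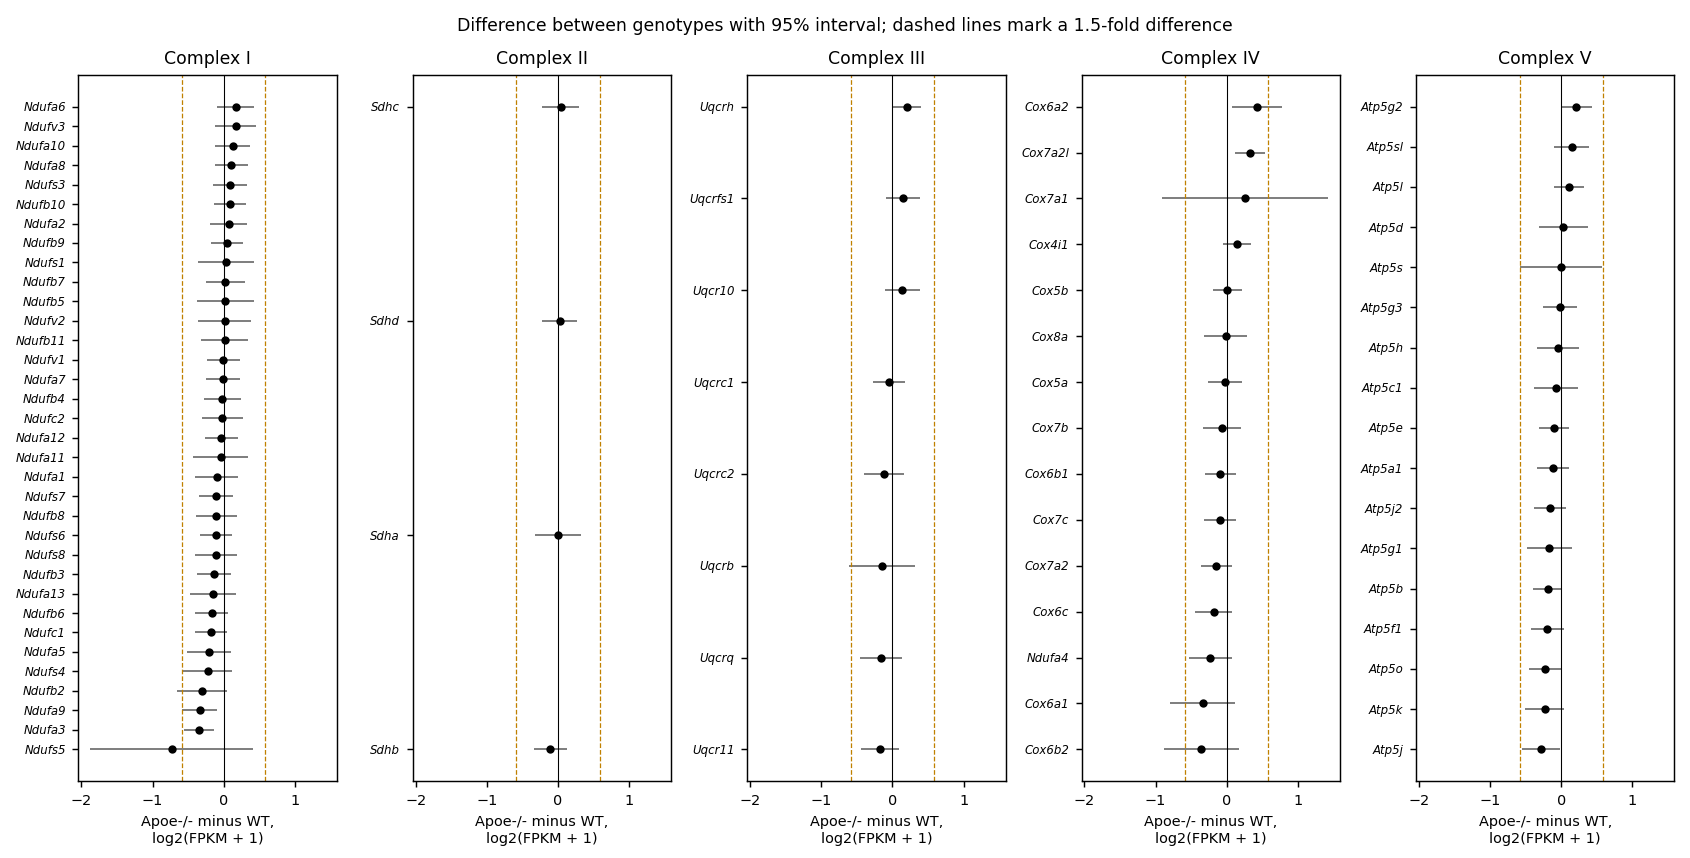
Difference in log2(FPKM + 1), Apoe-/- minus WT, of 78 of the 79 tested members, each with its 95% interval from limma, by complex; dashed lines mark 1.5-fold. For most members the interval stays between the dashed lines, while that of Ndufs5 runs from -1.88 to 0.41.

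Promoter sequences were searched for words that members share. The RefSeq table (GRCm38.p6) holds a promoter, from 250 bases before to 50 after the start, for 69 members. Letters of sites known for 4 regulators of respiratory genes were searched on both strands: GCGCANGCG for NRF1, CCGGAAG for GABPA, ATGGCGGC for YY1 and AAGGTCA for ESRRA. The NRF1 letters were present for 20 of 69 members (29.0%), 16.2% of tested genes and 7.03% of all genes with a promoter. The GABPA letters were present for 16 members (23.2%), 22.0% of tested genes and 9.93% of all genes. For YY1 the shares were 10.1%, 6.18% and 2.60%, and for ESRRA 11.6%, 3.83% and 5.38%. No 2 of these words contain each other, though single matches could overlap. The 20 members with the NRF1 letters had a median log2 difference of -0.05 and the 16 with the GABPA letters one of -0.10. No word was common to most members, and 32 of the 69 held none of the 4. A match is a run of letters and no measure of binding.

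The stretches below are those of the members with the lowest and the highest difference among holders of each word. As these members were picked by value, their differences are no test of a word. The NRF1, GABPA and ESRRA words printed lie before the start and the YY1 words lie after it. The strand was that of GENCODE M21 for all 69 members with a promoter. For 17 of 68 members the bases just after the RefSeq start were in no GENCODE transcript of that symbol on either strand, so the start is less certain there, and 5 of the 7 genes printed were matched. The stretches read 5′ to 3′ on the strand of the gene, and capitals mark the word or, for GABPA and ESRRA, its reverse complement. The stretch of Ndufs5 lies at chr4:123718251-123718310 (minus strand), Atp5g2 at chr15:102671056-102671115 (minus), Cox6a1 at chr5:115348959-115349018 (minus), Uqcrh at chr4:116075071-116075130 (minus), Ndufa9 at chr6:126849095-126849124 (minus), Atp5sl at chr7:25619432-25619461 (plus) and Atp5l at chr9:44920743-44920802 (minus). Their log2 differences were -0.73, 0.21, -0.34, 0.21, -0.34, 0.15 and 0.10 in turn. None of the 7 passed the test. The difference of Ndufs5 rested on 1 library and was 0.01 without Apoe-/- replicate 2. Ndufs5 also had the lowest difference among holders of the ESRRA word, which is not printed for it.
Ndufs5, NRF1 word: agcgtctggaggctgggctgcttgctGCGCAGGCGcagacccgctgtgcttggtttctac
Atp5g2, NRF1 word: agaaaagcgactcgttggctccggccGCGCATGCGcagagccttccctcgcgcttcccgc
Cox6a1, GABPA word: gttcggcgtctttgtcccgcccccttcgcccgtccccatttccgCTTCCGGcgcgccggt
Uqcrh, GABPA word: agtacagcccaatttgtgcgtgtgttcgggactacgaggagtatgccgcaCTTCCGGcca
Ndufa9, YY1 word: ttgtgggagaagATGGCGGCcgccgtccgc
Atp5sl, YY1 word: tacctggcaagATGGCGGCgcccagagcgg
Atp5l, ESRRA word: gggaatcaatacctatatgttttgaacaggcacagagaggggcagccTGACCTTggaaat

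Complex I, the NADH dehydrogenase, had 35 tested members, with 13 positive and 22 negative differences and a median of -0.03. This median was -0.08 without Apoe-/- replicate 1, -0.08 without WT replicate 2 and -0.08 after rescaling to one FPKM total. Its 7 nuclear core subunits, which carry the flavin and the iron-sulfur clusters or bind ubiquinone, had log2 differences from -0.11 (Ndufs8) to 0.09 (Ndufs3), with a median of 0.00. Ndufv1, which binds NADH, was at 41.6 and 41.6 FPKM in WT and 41.3 and 41.6 FPKM in Apoe-/- libraries. This level was the same to within 0.01 on the log2 scale, and its interval ran from -0.24 to 0.23. Ndufs1, the largest core subunit, was at 35.3 and 42.0 FPKM in WT and 34.8 and 44.2 FPKM in Apoe-/- libraries, so the libraries numbered 2 were the higher ones in both genotypes. Ndufs7, which carries an iron-sulfur cluster, was at 72.5 and 67.8 against 65.96 and 64.2 FPKM. Ndufv2 had means of 74.9 in WT and 76.1 FPKM in Apoe-/- libraries.

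The accessory subunits of complex I ranged from -0.73 to 0.17 over 28 genes. The lowest level was that of Ndufa11, at 12.1 and 9.66 against 11.4 and 9.57 FPKM. Ndufa3, a small membrane-arm subunit on chromosome 7 (3617347 to 3620165), was the most abundant member of the complex, at 301 and 286 FPKM in WT and 230 and 231 FPKM in Apoe-/- libraries. Both Apoe-/- values lay below both WT values (log2 difference -0.35 ± 0.08 SE, adjusted p = 0.111). Ndufa3 overlaps Tfpt on the opposite strand, and 0% of the 50-base words in its transcripts occur in transcripts of another gene. Ndufa9, which helps to join the peripheral and membrane arms and is named for its p after its values were seen, was at 52.7 and 52.5 against 43.1 and 39.9 FPKM (-0.34 ± 0.10 SE, adjusted p = 0.153). Again the groups did not overlap. Ndufa6 and Ndufv3, a subunit of the NADH-binding module, had the largest positive differences. Ndufa6 was at 116 and 113 in WT and 120 and 138 FPKM in Apoe-/- libraries (0.17 ± 0.10 SE, adjusted p = 0.426). Ndufv3 was at 111 and 99.5 against 126 and 111 FPKM, where the groups overlapped (0.17 ± 0.11 SE, adjusted p = 0.470).

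Ndufs5, an accessory subunit of the membrane arm on chromosome 4 (123712710 to 123718186), stood out by a single library. It was at 43.3 and 45.0 FPKM in WT and at 44.3 FPKM in Apoe-/- replicate 1, but at 15.3 FPKM in Apoe-/- replicate 2. Its log2 difference was -0.73 ± 0.46 SE (adjusted p = 0.433). Without Apoe-/- replicate 2 it was 0.01 (adjusted p = 0.989), and without Apoe-/- replicate 1 it was -1.47 (adjusted p = 0.00012), the only call among members when a library was left out. Of the 50-base words in its transcripts, 21.7% also occur in the processed pseudogene BC002163, so reads could be split between them. BC002163 was at 0.274, 0.337, 0.154 and 0 FPKM in the WT and then the Apoe-/- libraries. The part of such sharing in the low Ndufs5 value was not tested.

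Complex II, succinate dehydrogenase, is the one complex made of nuclear subunits alone and also works in the citric acid cycle. All 4 subunits had intervals within 1.5-fold. The flavoprotein Sdha was at 85.0 and 93.2 FPKM in WT and 80.6 and 98.0 FPKM in Apoe-/- libraries (log2 difference 0.00 ± 0.13 SE, adjusted p = 0.997), with the libraries numbered 2 higher in both genotypes. The iron-sulfur subunit Sdhb was at 80.0 and 75.8 against 72.7 and 71.3 FPKM, the only 1 of the 4 whose groups did not overlap (-0.11 ± 0.09 SE, adjusted p = 0.547). The membrane anchors Sdhc and Sdhd had means of 59.7 and 62.0 FPKM in WT and 61.3 and 62.8 FPKM in Apoe-/- libraries. The 4 genes thus lay within a narrow range of levels, 60.5 to 89.2 FPKM.

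Complex III, the cytochrome bc1 complex, held the hinge protein Uqcrh as its most abundant member, at 358 and 375 FPKM in WT and 419 and 428 FPKM in Apoe-/- libraries (log2 difference 0.21 ± 0.08 SE, adjusted p = 0.234). Both Apoe-/- values were above both WT values. The hinge protein assists electron transfer to cytochrome c. The Rieske iron-sulfur protein Uqcrfs1, which takes electrons from ubiquinol, was at 73.2 and 74.9 against 79.1 and 85.2 FPKM (0.15 ± 0.09 SE, adjusted p = 0.446), also without overlap. The core proteins Uqcrc1 and Uqcrc2 had means of 90.7 and 109 FPKM in WT and 87.4 and 101 FPKM in Apoe-/- libraries (adjusted p = 0.786 and 0.587). The small subunits Uqcr11 and Uqcrq had the lowest differences, -0.17 and -0.16 (adjusted p = 0.438 and 0.509). Uqcr11 was at 117.7 and 102 against 99.2 and 95.6 FPKM, and Uqcrq at 188 and 157 against 159 and 149 FPKM, where the groups overlapped. Over the 8 members the differences were positive for 3 and negative for 5, and the summed FPKM of the complex was 1259 and 1240 in WT and 1254 and 1299 in Apoe-/- libraries, which overlap.

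In complex IV, cytochrome c oxidase, the related genes Cox7a2l and Cox7a2 had differences of opposite sign. Cox7a2l was at 248 and 269 FPKM in WT and 323 and 324 FPKM in Apoe-/- libraries (log2 difference 0.32 ± 0.09 SE, adjusted p = 0.132; 0.38 and 0.27 within replicate numbers 1 and 2). Its relative Cox7a2, the ubiquitous structural subunit, was at 112 and 115 against 104 and 101 FPKM (-0.15 ± 0.09 SE, adjusted p = 0.413). Neither gene overlapped between groups. The ratio of Cox7a2l to Cox7a2 was 2.22 and 2.34 in WT and 3.11 and 3.22 in Apoe-/- libraries. Cox7a2l took 69.3% ± 0.942 (SD, n = 2) of the summed FPKM of the Cox7a genes in WT and 75.7% ± 0.734 (SD, n = 2) in Apoe-/- cells, and the gap was 5.74 to 7.07 percentage points with 1 library left out. With 2 libraries a group, the smallest p of an exact two-sided permutation test is 0.333, and no such test is given for the shares. Of its 50-base words, 13.8% also occur in the gene Gm6969.

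No other ubiquitous subunit of complex IV passed the test either. Cox4i1, a regulatory subunit, was at 358 and 353 against 382 and 405 FPKM (0.14 ± 0.08 SE, adjusted p = 0.390). Cox5a and Cox5b, peripheral subunits on the matrix side, had means of 156 and 231 FPKM in WT and 153 and 232 FPKM in Apoe-/- libraries. Cox6a1 was at 251 and 209 FPKM in WT and 213 and 153 FPKM in Apoe-/- libraries, and the groups overlapped (-0.34 ± 0.18 SE, adjusted p = 0.370). Ndufa4 was at 213 and 246 against 181 and 209 FPKM (-0.23 ± 0.12 SE, adjusted p = 0.353). Cox8a, the most abundant member of the complex, had means of 398 and 395 FPKM. Cox6b1 and Cox7b had means of 322 and 124 FPKM in WT and 303 and 118.3 FPKM in Apoe-/- libraries.

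The tissue-restricted isoforms, known from muscle, lung, testis or hypoxic cells, were at or near 0. Cox7b2, Cox8b and Cox8c were listed at 0 in each library. Cox4i2 was listed at 0 in 3 libraries and at 0.152 FPKM in Apoe-/- replicate 2, and Ndufa4l2 at 0.064 and 0.0772 FPKM in the libraries numbered 1 and at 0 in those numbered 2. Cox6a2, the heart and skeletal muscle form, was at 1.01 and 0.769 FPKM in WT and 1.54 and 1.52 FPKM in Apoe-/- libraries (log2 difference 0.42 ± 0.14 SE, adjusted p = 0.194). It made up 0.367% to 0.978% of the Cox6a pair, so Cox6a1 supplied nearly all of it in either genotype. Cox6a2 overlaps Itgad on the opposite strand, and the strand setting of the counting is not given in the sources used here. Cox7a1, the other muscle form, was at 2.09 and 0.676 FPKM in WT and 3.11 and 0.8 FPKM in Apoe-/- libraries, high in both libraries numbered 1. Cox6b2, known from testis, was at 1.26 and 1.88 against 1.3 and 0.717 FPKM (adjusted p = 0.410).

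**Figure D3:**
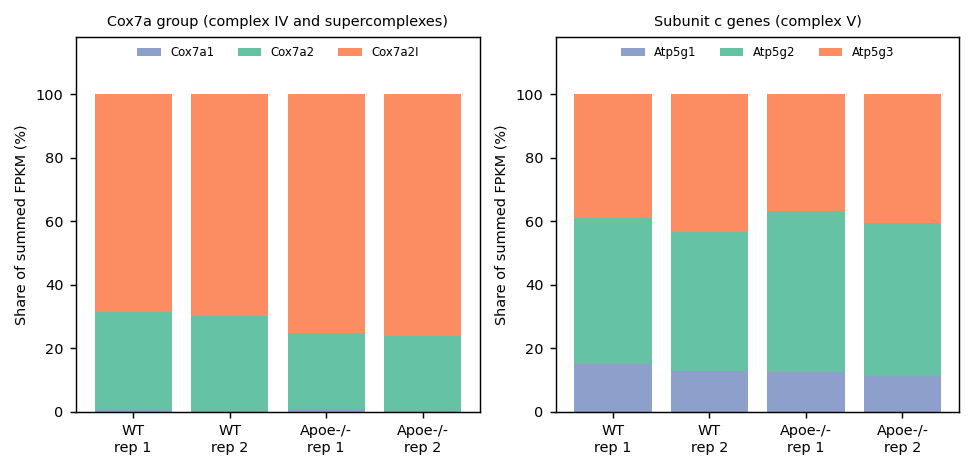
Share in percent of the summed FPKM of a gene group that each gene took in each library, for the 3 Cox7a genes and the 3 genes of ATP synthase subunit c. Cox7a2l takes 68.6% and 69.9% in WT and 75.1% and 76.2% in Apoe-/- libraries, and Atp5g2 takes 45.8% and 43.8% against 50.8% and 48.1%.

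Complex V, the ATP synthase, had 13 negative and 4 positive differences among its 17 members and the lowest median of the complexes, -0.10. It was -0.06 without Apoe-/- replicate 1, where complex IV had -0.10 and complex I -0.08, and -0.16 without Apoe-/- replicate 2. The catalytic beta subunit Atp5b was at 389 and 388 FPKM in WT and 332 and 349 FPKM in Apoe-/- libraries (log2 difference -0.19 ± 0.08 SE, adjusted p = 0.269). The alpha subunit Atp5a1 was at 319 and 344 against 294 and 319 FPKM (-0.12 ± 0.09 SE, adjusted p = 0.535), and the epsilon subunit Atp5e, the most abundant member, at 446 and 410 against 403 and 395 FPKM (-0.10 ± 0.08 SE, adjusted p = 0.555). In these 3 genes the Apoe-/- libraries lay below the WT libraries. The gamma subunit Atp5c1, the rotor shaft, overlapped between groups, with means of 194 and 184 FPKM.

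Among the membrane and stalk subunits, Atp5j, coupling factor 6 of the peripheral stalk, was at 162 and 164 FPKM in WT and 124 and 144 FPKM in Apoe-/- libraries (-0.29 ± 0.10 SE, adjusted p = 0.222). Atp5j overlaps Gabpa, the gene of an Ets factor of respiratory genes, on the opposite strand. Gabpa had means of 22.7 and 23.1 FPKM (adjusted p = 0.955). Atp5k, subunit e, was at 303 and 262 against 250 and 230 FPKM (-0.23 ± 0.11 SE, adjusted p = 0.312), and its groups did not overlap either.

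Subunit c, which forms the rotor ring, is made from 3 genes whose mature products are the same and whose import sequences differ. Atp5g2 was at 344 and 327 FPKM in WT and 407 and 373 FPKM in Apoe-/- libraries (0.21 ± 0.09 SE, adjusted p = 0.263). Atp5g1 was at 113 and 96.2 against 99.3 and 86.8 FPKM (-0.17 ± 0.13 SE, adjusted p = 0.516), and Atp5g3 at 293 and 324 against 294 and 316 FPKM (-0.02 ± 0.09 SE, adjusted p = 0.945). The ratio of Atp5g2 to Atp5g1 was 3.04 and 3.40 in WT and 4.10 and 4.30 in Apoe-/- libraries, without overlap. Of the 50-base words of Atp5g2, 38.4% occur in other genes, most of them in Gm10175, so its level is uncertain. The genes that are not structural were Atp5s, at 3.604 and 4.16 against 2.89 and 5.06 FPKM, and Atp5sl, at 26.9 and 27.5 against 29.6 and 30.8 FPKM (0.15 ± 0.10 SE, adjusted p = 0.467). Atp5sl, at 25619414 to 25625550 on chromosome 7, lies 5.92 Mb from Apoe and was the only member within 10 Mb of it.

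Summed over its members, complex V stood at 3939.6 and 3891 FPKM in WT and 3708 and 3734 FPKM in Apoe-/- libraries, a ratio of 0.95. Complex I stood at 2945 and 2838 against 2783 and 2757 FPKM and complex IV at 2929.7 and 2904 against 2874 and 2826 FPKM. In these 3 complexes the Apoe-/- sums lay below the WT sums, whereas the sums of complexes II and III overlapped. All members together made up 2.18% and 2.12% of the FPKM total in WT and 2.04% and 1.98% in Apoe-/- libraries. The sums of B cell, erythroid and proliferation markers were lower in the same Apoe-/- libraries. Those of helper T, macrophage and monocyte, CD8 T and NK, dendritic and neutrophil markers were higher. The part of these cell markers in the sums by complex was not tested. No p is given for sums over a list chosen with earlier results known.

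**Figure D4:**
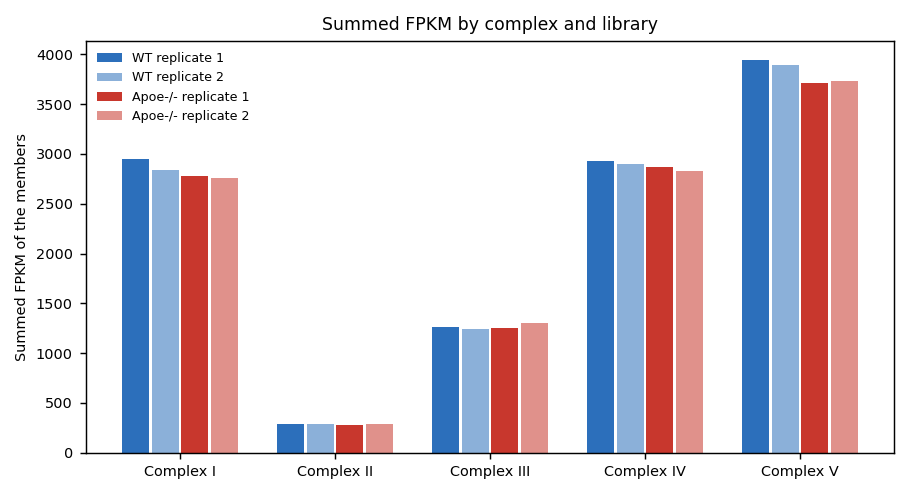
Summed FPKM of the members of each complex by library; blue bars are WT, red bars Apoe-/-, and the paler shade is replicate 2. Complex V runs from 3708 to 3939.6 FPKM and complex II from 280.1 to 290.6 FPKM, and in complexes I, IV and V both red bars are below both blue bars.

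Libraries with the same replicate number shared part of their deviations at these genes. Across the 79 members, the difference of replicate 2 from replicate 1 in WT and the same difference in Apoe-/- cells, which share no library, had Pearson's r = 0.554 and Spearman's rho = 0.647. Without Ndufs5 and Cox7a1 the values were 0.595 and 0.666. These are descriptions across genes, which are not independent replicates. Over all tested genes they were 0.214 and 0.667. As examples, replicate spread was larger than the genotype difference for Ndufs1, Ndufv2, Ndufb5 and Sdha, which were higher in replicate 2 of both genotypes. Cox8a went the other way, with replicate 2 minus replicate 1 at -0.17 in WT and -0.26 in Apoe-/- libraries and a genotype difference of -0.01. Ndufb5, named after its values were seen, was at 68.8 and 82.9 FPKM in WT and 68.1 and 86.6 FPKM in Apoe-/- libraries. The labels do not say that equal numbers mark a shared animal or day.

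**Figure D5:**
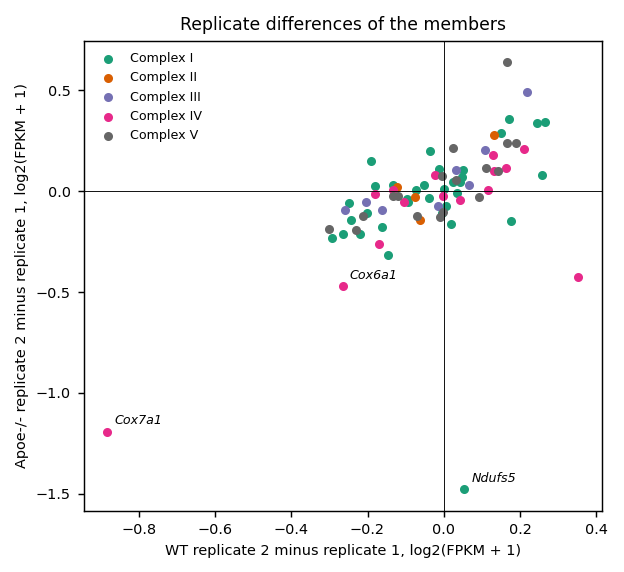
Difference in log2(FPKM + 1) of replicate 2 from replicate 1 in Apoe-/- (vertical axis) against the same in WT libraries (horizontal axis) for 78 of the 79 tested members, coloured by complex. Most points lie near 0 and run from lower left to upper right; Ndufs5 lies far below, at 0.05 and -1.48, and Cox7a1 at the lower left.

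Other genes of the pathway gave 1 call, while 1.83% of all tested genes passed. For comparison with the lists below, 11.6% of all tested genes were higher and 8.27% lower at an unadjusted p under 0.05. Where a pair of values is given for genes of these lists, it is the mean of the WT and then of the Apoe-/- libraries. Of 41 tested assembly factors of complexes I to V, 0 passed by limma (1 higher and 1 lower at an unadjusted p under 0.05; median log2 difference -0.01). The extremes were Sdhaf1, an assembly factor of complex II, at 45.1 and 60.1 FPKM (0.41 ± 0.10 SE, adjusted p = 0.108), and Timmdc1, a complex I factor, at 10.9 and 8.32 FPKM (-0.35 ± 0.12 SE, adjusted p = 0.209). Of 19 electron carriers and genes of ubiquinone synthesis, 1 fell and 18 did not pass. Differences were positive for 9 of the 19 and negative for 10. Coq10b, a ubiquinone-binding protein, fell from 46.7 and 56.3 FPKM in WT to 11.9 and 17.7 FPKM in Apoe-/- libraries (-1.75 ± 0.21 SE, adjusted p = 0.029). With no filter on FPKM its adjusted p was 0.0767. Adck3, of the same list, was at 40.1 and 26.5 FPKM without overlap (-0.58 ± 0.10 SE, adjusted p = 0.0641). Coq3, a methyltransferase of ubiquinone synthesis, was at 3.69 and 5.85 FPKM (adjusted p = 0.131), and cytochrome c, Cycs, at 28.8 and 22.9 FPKM (adjusted p = 0.392).

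Among 13 citric acid cycle enzymes 0 passed by limma, and 0 did so at an unadjusted p under 0.05 (median -0.06). Citrate synthase, Cs, was at 80.6 and 88.7 FPKM (adjusted p = 0.472) and Sucla2 at 27.6 and 23.8 FPKM (adjusted p = 0.640). Of 18 regulators of mitochondrial biogenesis 0 passed, with 1 lower and 0 higher at an unadjusted p under 0.05 (median -0.08). The extremes were the GABP beta subunits Gabpb1, at 35.5 and 25.6 FPKM (-0.46 ± 0.14 SE, adjusted p = 0.161), and Gabpb2, at 24.8 and 31.1 FPKM (0.31 ± 0.13 SE, adjusted p = 0.275). Neither gene overlapped between groups. Nrf1 and Tfam, the factor of mitochondrial DNA transcription, were at 19.5 and 20.0 FPKM in WT and 20.3 and 20.9 FPKM in Apoe-/- libraries. Ppargc1a was at 0.0271 to 0.0807 FPKM over the 4 libraries and was not tested.

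Of 11 genes of ATP export and coupling and of 11 supercomplex and cristae factors, 0 passed by limma and 0 had an unadjusted p under 0.05 (medians -0.05 and -0.02). The extremes of the first list were the ADP/ATP carrier Slc25a4, at 82.3 and 98.1 FPKM (adjusted p = 0.260), and the acyl carrier protein Ndufab1, at 49.4 and 39.2 FPKM (adjusted p = 0.358). Ndufab1 is itself a complex I subunit, but its symbol falls outside the family pattern used here. Any other subunit with such a symbol is left out too, so counts, medians and sums by complex cover the members only. The extremes of the second list were the prohibitin Phb2, at 86.4 and 97.9 FPKM (adjusted p = 0.442), and Apool, at 20.4 and 16.7 FPKM (adjusted p = 0.459).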

How the data were processed

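RNA of Tfh cells was sequenced in 2 WT and 2 Apoe-/- libraries. The authors deposited FPKM per gene symbol; the tools listed in the submitters' processing notes are TopHat2 2.0.13, Cuffdiff 2.2.0 and CASAVA 1.8.2, with the build mm10. For annotation, filters and strand setting the sources used here give nothing. In 2 rows a space replaced a tab, and all rows were split on white space. No count model was used, since depth is unknown.

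The fit used log2(FPKM + 1) of genes averaging at least 1 FPKM, in limma 3.58.1 under R 4.3.3 (lmFit, then eBayes with trend; two-sided p). Benjamini-Hochberg adjustment covered every tested gene, with 0.05 as the threshold. The scale understates differences of low genes. The script was tested on simulated data. Gene positions came from RefSeq (GRCm38.p6, the build called mm10), where 81 members matched by symbol and 3 by older name; strands, overlaps and 50-base words came from GENCODE M21.

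Members and lists were chosen with earlier results of these data known. The genes named are, by a fixed rule, the catalytic core, the isoform groups, the highest and lowest member and the 2 largest differences in each direction per complex, members within 10 Mb of Apoe, any called gene, and each pathway list's extremes; 1 member is counted but not reported here; 12 alternatives were tried.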

Additional observations from a re-analysis of the deposited data

How the results depend on the processing

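Counts and medians were recomputed under 12 alternatives. The count of members called was 0 in each direction at pseudocounts of 0.1 and 0.5, with no FPKM filter, with a mean of 5 or more, under both rescalings and without the variance trend. With 1 library left out it was 0 higher and 0 to 1 lower, the 1 being Ndufs5. With the replicate number as a replicate block, 7 of 79 members were called higher and 21 of 79 lower. Over all tested genes 1908 and 1776 of 11187 were. The members' share was below that of all tested genes for higher calls and above it for lower calls. The labels do not give this pairing by replicate number. Over all tested genes, the replicate differences of the 2 genotypes correlated at 0.214 by Pearson and at 0.667 by Spearman. The block called Cox7a2l (adjusted p = 0.006), Uqcrh (0.00853) and Atp5g2 (0.00922) among the higher members and Ndufa3 (0.00422), Ndufa4 (0.00766), Ndufa9 (0.00915) and Atp5k (0.0109) among the lower ones. All genes called were 106 higher and 99 lower. They were 35 and 41 with no filter, and 51 higher with a mean of 5 or more. Leaving out 1 library gave 54 to 317 higher and 61 to 301 lower, the lone library of a genotype being assumed to vary like the other genotype. Rescaled to one FPKM total, the medians of complexes I and IV were -0.0794 and -0.114, against -0.0318 and -0.0661; with no filter complex IV had -0.025. With 1 library left out, medians ranged from -0.0834 to -0.0423 (complex I), -0.0437 to -0.000821 (II), -0.0638 to 0.0353 (III), -0.119 to -0.0385 (IV) and -0.163 to -0.0605 (V). The sign of the difference turned in 10 of 79 members after that rescaling, in 3 after a shift to one median, in 15 without Apoe-/- replicate 1, in 14 without WT replicate 2 and in 8 without each of the other libraries. The cause of these shifts was not tested.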

Other observations

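The members lie on 19 chromosomes, with 9 on chromosome 7. In GENCODE M21, 37 of the 84 overlap another annotated gene and 29 overlap one on the opposite strand. For 35 members no 50-base word of their transcripts occurs in another gene, and for 19 more than 10% do, the highest shares being those of Atp5g2 (38.4%) and Atp5o (35.1%). Atp5o, the stalk subunit OSCP, was at 176 and 175 FPKM in WT and 156 and 143 FPKM in Apoe-/- libraries (adjusted p = 0.256). Read length is not given in the sources used here, so how far reads were split between copies was not tested.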
